A study of Canis lupus familiaris with 10 samples.

Results

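The genes examined here are the transcriptional output and feedback genes of the RAS-ERK branch of the MAPK pathway, namely DUSP4, DUSP5, DUSP6, SPRY1, SPRY2, SPRY4, SPRED1, ETV4, ETV5 and PHLDA1. They were given as a list of 10 symbols and matched by symbol to the 23266 genes of the deposited table, which yielded 9 of them. DUSP4 was not analyzed here. The libraries were made with QuantSeq 3′ from archived canine cutaneous histiocytoma (CCH) that had been fixed in formalin and embedded in paraffin. CCH is a benign proliferation of cells of the Langerhans lineage in the skin of dogs, and most of these tumors regress without treatment. Early CCH (n = 5) was histological group 1 of the staging scheme of Cockerell and Slauson, and late CCH (n = 5) was group 3, labeled as rich in lymphocytes. The tumors had been excised from privately owned dogs, and breed, age and sex in the labels give each sample a dog of its own. Early tumors came from dogs of 4 breeds (Boxer, French Bulldog, Goldendoodle and Terrier) aged 0.5 to 5 years where an age was given (n = 4), and late tumors from dogs of 5 breeds (Beagle, Bullterrier, Jack Russell Terrier, Pug and Rottweiler) aged 1.5 to 9 years. Early dogs were 3 males, 1 female and 1 of unstated sex, and late dogs 4 males and 1 female. According to the study's methods, tissue adjacent to the tumor was removed before RNA isolation, so that each library stands for a whole tumor cross section and not for sorted cells.

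In the RAS-ERK branch, a growth factor receptor activates RAS, and the kinases RAF, MEK and ERK pass the signal on in sequence. Active ERK induces transcription factors of the PEA3 group (ETV1, ETV4 and ETV5) and, at the same time, its own brakes. Dual-specificity phosphatases such as DUSP6 remove the phosphates from ERK, whereas Sprouty and SPRED proteins act further upstream, between the receptor and RAF. Transcripts of these genes are therefore widely used as a readout of ERK activity. In histiocytic disorders of humans that arise from related cells, mutations that activate this branch are common. All values below are normalized read counts, that is, the reads of a gene divided by 1 size factor per library. QuantSeq 3′ yields about 1 fragment per transcript, so that levels of different genes were compared without division by length. All changes are log2 fold changes (log2FC), late minus early, of the normalized read count + 1.

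The libraries held between 2973125 and 4439709 reads assigned to genes. Means were 3602517 ± 497586 in early and 3121297 ± 108485 in late libraries (SD, n = 5 each, exact two-sided permutation p = 0.0238). RNA quality, given in the labels as DV200 (the percentage of longer RNA fragments), was 68.5% ± 2.46 in early and 73.2% ± 2.09 in late samples (SD, n = 5 each, exact two-sided permutation p = 0.0238). Markers of T cells moved with the stage, since all 12 listed genes had higher means in late CCH and their summed level was 92.3 to 2884 in early and 4533 to 7124 in late libraries. Of the Langerhans and dendritic cell markers, CD207 was not analyzed, and the summed level of the other 9 was 1004 to 2854 in early and 796 to 1242 in late libraries. None of these 9 was at 0 throughout, but CD1C reached no more than 11.6 in any library. The study lists different RNA extraction batches and older tissue blocks for late than for early CCH, so that batch, block age and stage cannot be told apart. The part of depth and RNA quality in the differences below was not tested.

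The comparison of the stages addressed which genes differ between early and lymphocyte-rich late tumors, which came from different dogs. Both transcription factors and 1 of the 6 feedback inhibitors, SPRED1, were called lower in late CCH. A call required a log2FC of 1 or more in either direction together with a p of 0.05 or less from limma, adjusted by the Benjamini-Yekutieli (BY) procedure. On these terms the calls were ETV4, ETV5 and SPRED1, and none of the 9 genes was called higher. Across the 12397 genes tested, 1.11% were called lower and 1.06% higher. The 9 genes all passed the filter on low values. Their median log2FC was -1.20, against -0.004 for all genes tested. With Benjamini-Hochberg (BH) adjustment, SPRY4 was called lower as well, which made 4 of 9 lower and 0 higher, against 3.52% and 5.53% of all genes. On the recovered reads, edgeR called the same 3 genes as limma and DESeq2 called these and SPRY4, where 0.774% and 2.66% of all genes were called lower. At an unadjusted p of at most 0.05, 6 of 9 were lower and 1, DUSP5, was higher. Among all genes, 15.3% were lower at this p, and 30.9% reached it in either direction. In ETV4, ETV5, SPRED1 and DUSP6, each late library lay below every early library, a separation found in 6.05% of all genes. In a bulk sample, a smaller share of cells of a type and less RNA per cell cannot be told apart, which holds for each of these differences. In the RefSeq annotation of the assembly UU_Cfam_GSD_1.0, an uncharacterized long non-coding RNA overlaps each of ETV4 and SPRED1 and a small nuclear RNA overlaps ETV5. The strand of these neighbors was not compared, and whether their reads were counted for ETV4, SPRED1 or ETV5 was not tested. Other loci lie close to DUSP5, DUSP6 and SPRY4 without overlap, and whether their reads were counted for these genes was not tested.

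**Figure D1:**
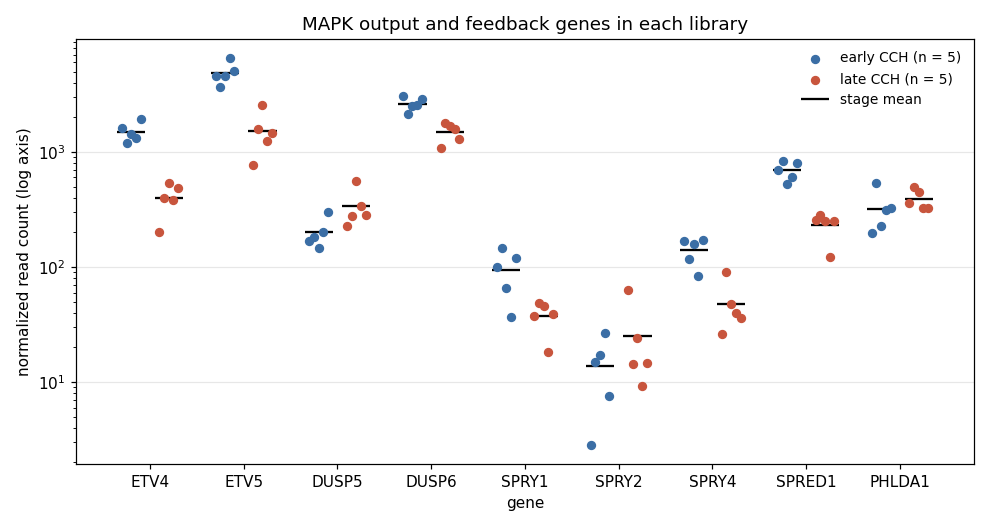
Normalized read counts (log axis) of the 9 genes in each of the 5 early and 5 late libraries, with the stage mean as a line and libraries in the same order within each stage. The late points lie below all early points in ETV4, ETV5, DUSP6 and SPRED1, and the stages overlap in the other 5 genes.

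ETV4 and ETV5 encode ETS-family transcription factors and were among the most abundant of the 9 transcripts. ETV4 had normalized read counts of 1611, 1203, 1434, 1324 and 1924 in early libraries 1 to 5 and of 203, 395, 535, 379 and 484 in late libraries 1 to 5. The highest late library thus remained far below the lowest early library. Means were 1499 ± 281 in early and 399 ± 127 in late CCH (SD, n = 5 each). ETV4 thereby fell by 1.96 ± 0.24 (SE) on the log2 scale (BY-adjusted p = 0.00938), which is 3.89-fold lower in late CCH (95% CI 2.72 to 5.57). Of the 9 genes, ETV4 alone kept its call when any of the 10 libraries was omitted.

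ETV5 had the highest mean of the 9 genes in both stages. Its normalized read counts were 4536, 3646, 4558, 6531 and 5035 in early libraries 1 to 5 and 766, 1573, 2568, 1242 and 1473 in late libraries 1 to 5. Early CCH therefore held this transcript at the 99.4th percentile of all genes tested, and late CCH at the 97.9th. The log2FC was -1.75 ± 0.27 (SE, BY-adjusted p = 0.0256), which is 3.37-fold lower in late CCH (95% CI 2.24 to 5.07). The call was lost, at adjusted p-values between 0.0502 and 0.102, without early library 1, 4 or 5 or late library 2, 4 or 5, while the log2FC stayed between -1.53 and -1.97 without any single library.

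Within a library, the level of ETV4 was 0.203 to 0.382 of that of ETV5 in early CCH and 0.208 to 0.328 in late CCH. The log2 ratio was -1.69 ± 0.36 in early and -1.90 ± 0.26 in late CCH (SD, n = 5 each), and the difference of -0.21 was smaller than either SD. ETV1, the third gene of the PEA3 group, belonged to a wider list of family members. It ranged from 1718 to 3285 in early and from 324 to 920 in late libraries, with a log2FC of -2.18 ± 0.27 (SE, BY-adjusted p = 0.0106) and with its call kept when any of the 10 libraries was omitted.

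Neither of the dual-specificity phosphatases passed the test. DUSP6, the cytoplasmic phosphatase of ERK, had normalized read counts of 3044.5, 2152, 2495, 2583 and 2894 in early libraries 1 to 5 and of 1087, 1774, 1674, 1591 and 1289 in late libraries 1 to 5. The stages did not overlap, and the spread within each of them was the narrowest of the 9 genes, with a coefficient of variation of 13.3% in early and 19.3% in late CCH. The log2FC of -0.84 ± 0.16 (SE, 95% CI -1.20 to -0.49) stayed under the size required for a call, and its BY-adjusted p was 0.0659. With BH adjustment the p was 0.00659.

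DUSP5, a nuclear phosphatase of ERK, had normalized read counts of 170, 183, 148, 202 and 303 in early libraries 1 to 5 and of 229, 278, 563, 339 and 283 in late libraries 1 to 5. Late library 3 was the highest and early library 5 lay above 3 late libraries, so that the stages overlapped. Its log2FC of 0.72 ± 0.25 (SE, 95% CI 0.17 to 1.27) did not pass the test (BY-adjusted p = 0.721). Without late library 3, the log2FC was 0.52. The level of DUSP6 was 9.56 to 18.0 times that of DUSP5 in early libraries and 2.97 to 6.39 times in late libraries, with no overlap. This ratio was chosen after the values had been seen and does not depend on the scaling of the libraries.

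Sprouty proteins are membrane-associated inhibitors of signaling from growth factor receptors to RAS and RAF. SPRY4 had normalized read counts of 167, 118, 159, 83.5 and 171 in early libraries 1 to 5 and of 25.9, 91.3, 47.5, 39.9 and 35.7 in late libraries 1 to 5. In 4 of 5 late libraries it lay below every early library, and late library 2 exceeded early library 4. The log2FC was -1.60 ± 0.32 (SE, 95% CI -2.31 to -0.90) with a BY-adjusted p of 0.0778 and a BH-adjusted p of 0.00778.

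SPRY1 had normalized read counts of 100, 146, 65.1, 37.0 and 119 in early libraries 1 to 5 and of 37.8, 48.5, 45.5, 18.4 and 38.8 in late libraries 1 to 5. Early library 4 was as low as the late libraries. Its log2FC of -1.20 ± 0.38 (SE, 95% CI -2.03 to -0.37) did not pass the test (BY-adjusted p = 0.509). Without early library 4, the log2FC was -1.5 and the adjusted p was 0.127.

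SPRY2 was the least abundant of the 9 genes. Its normalized read counts were 2.86, 14.9, 17.2, 26.8 and 7.51 in early libraries 1 to 5 and 62.6, 14.3, 24.2, 9.20 and 14.7 in late libraries 1 to 5. The value of early library 1 rested on 3 reads, and all late libraries except library 1 lay inside the early range. The interval of its log2FC (0.78, 95% CI -0.57 to 2.13) covers both directions. The coefficient of variation was 66.6% in early and 86.9% in late libraries, above the 25.3% and 19.9% that counting error alone would give. Without late library 1, the log2FC was 0.38, and without early library 1 it was 0.37.

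SPRED1, a relative of the Sprouty proteins that brings the RAS inhibitor neurofibromin to the membrane, was the clearest change among the inhibitors. It had normalized read counts of 699, 842, 531, 602.5 and 804 in early libraries 1 to 5 and of 255, 285, 251, 123 and 253 in late libraries 1 to 5. The lowest early library was above the highest late library, and 4 of the late libraries lay within a narrow range with late library 4 beneath them. The log2FC was -1.61 ± 0.23 (SE, BY-adjusted p = 0.0181), which is 3.05-fold lower in late CCH (95% CI 2.16 to 4.30). The call was lost without early library 1 (adjusted p = 0.0531) and without early library 5 (adjusted p = 0.0707). The number of calls among the 9 genes was then 1 in place of 3.

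PHLDA1 encodes a pleckstrin homology-like protein that is commonly counted among the transcripts induced by ERK. It had normalized read counts of 197, 532, 227, 310 and 326 in early libraries 1 to 5 and of 357, 495, 447, 325 and 324 in late libraries 1 to 5. Every late value lay inside the range of the early values. The log2FC was 0.36 ± 0.25 (SE, 95% CI -0.18 to 0.89) with a BY-adjusted p of 1 and an unadjusted p of 0.174.

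**Figure D2:**
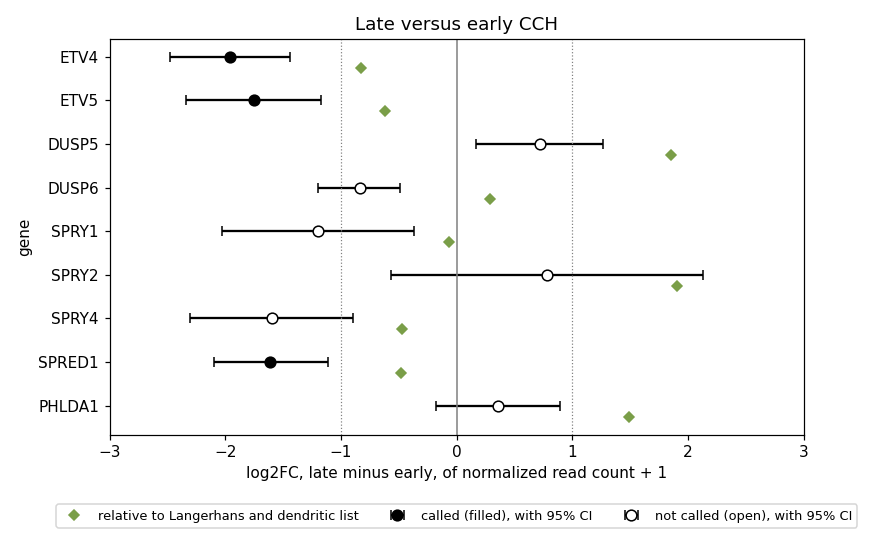
Log2FC of the 9 genes between late and early CCH (5 libraries each), with filled circles for genes called, open circles for genes not called, bars for the 95% CI, and dotted lines at a size of 1. Diamonds give the same difference after subtraction of the Langerhans and dendritic cell marker list in each library. By construction, this moves all 9 genes to the right by the same amount.

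The order of the levels changed between the stages. In early CCH it was ETV5, DUSP6, ETV4, SPRED1, PHLDA1, DUSP5, SPRY4, SPRY1 and SPRY2, with means from 4861 down to 13.8. Each of these genes exceeded the next in 5 of 5 early libraries, except DUSP5 over SPRY4 and SPRY4 over SPRY1, which held in 4 of 5. In late CCH, ETV5 exceeded DUSP6 in only 2 of 5 libraries, with means of 1524 ± 662 and 1483 ± 286 (SD, n = 5). ETV4, PHLDA1, DUSP5 and SPRED1 followed with means of 399, 390, 338 and 233, and each exceeded the next in 3 of 5 late libraries. Late CCH therefore had 2 abundant transcripts, a middle group without a full order, and 3 Sprouty genes at means of 48.0, 37.8 and 25.0. Within the middle group, PHLDA1 lay above SPRED1 in 5 of 5 late libraries.

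Within a stage, the 9 genes did not vary as a block. Late library 1 held the lowest late value of 5 genes, with log2 deviations from the stage mean of -0.90 in ETV4, -0.88 in ETV5, -0.74 in SPRY4, -0.49 in DUSP5 and -0.42 in DUSP6. The same library held the highest late value of SPRY2, with a deviation of 1.61. Late library 3 lay above the stage mean in all 9 genes, and late library 2 had the highest late value of 5 of them. Late library 4 had the lowest late values of SPRY1, SPRY2 and SPRED1, whereas ETV4 stayed at its stage mean there. In early CCH, library 5 lay above the stage mean in 8 of 9 genes and library 3 below it in 7.

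**Figure D3:**
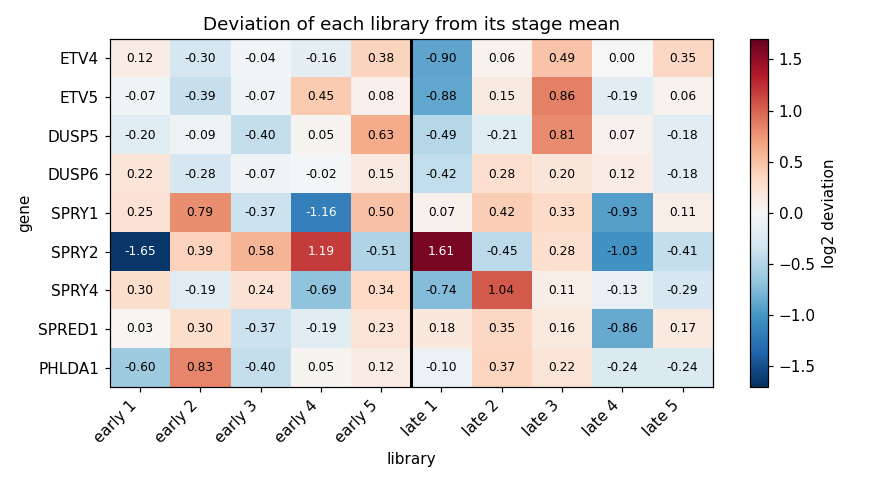
Log2 deviation of each library from the mean of its own stage for the 9 genes (rows), with early libraries left and late libraries right of the line. ETV4 and ETV5 share their low in late library 1 at -0.90 and -0.88, whereas SPRY2 is highest there at 1.61.

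Cell type markers were set beside these values. All 12 T-cell markers had a positive log2FC, but none was called (BY-adjusted p from 0.0797 to 0.448). In early libraries 1 to 5, the summed level of the T-cell markers was 92.3, 961, 2884, 1991 and 305. ETV4 was 1611, 1203, 1434, 1324 and 1924 in these libraries, and DUSP6 was 3044.5, 2152, 2495, 2583 and 2894. ETV4, DUSP6 and SPRY4 had their 2 highest early values in libraries 1 and 5, where the T-cell markers were lowest. None of the other genes did, and SPRY2 had its 2 lowest early values there. ETV5 was 4536, 3646, 4558, 6531 and 5035, and SPRED1 was 699, 842, 531, 602.5 and 804. These orders within early CCH were not put to a test. The Langerhans and dendritic cell markers had a median log2FC of -0.90 over the 8 genes tested, of which 7 were lower in late CCH and 2 were called lower (FLT3 and FCER1A). CCR7 went the other way, with a log2FC of 2.38 (BY-adjusted p = 0.252). The mean log2 level of the 8 genes, CCR7 included, differed by -1.13 between the stages. Without CCR7 this mean would have fallen further, and all differences below would lie higher. The differences without CCR7 were not computed. The smaller falls below, such as those of SPRED1 and SPRY4, therefore rest on the inclusion of this gene. In a comparison chosen after the data had been seen, this mean was subtracted from each of the 9 genes in each library. The log2 difference was then -0.83 for ETV4, -0.62 for ETV5, -0.48 for SPRED1 and -0.47 for SPRY4. ETV4 was below every early library in 4 of 5 late libraries on this scale and ETV5 in 3, but SPRED1 and SPRY4 in none. DUSP6 turned to 0.29 and SPRY1 lay at -0.07. DUSP5 and SPRY2 lay at 1.85 and 1.91 with every late library above all early libraries, and PHLDA1 at 1.49 with 4 of 5. Subtraction of a mean that falls by 1.13 raises every log2FC by this amount by construction. Before subtraction, 2, 1 and 0 late libraries lay above all early libraries in DUSP5, SPRY2 and PHLDA1, and none of these genes was called.

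Other markers gave less distinct ranges. Summed keratinocyte markers were 959 to 16909 in early and 685 to 8616 in late libraries (9 of 10 listed genes in the table), endothelial markers 540.0 to 1022 and 703 to 1381 (9 of 9), macrophage markers 2587 to 11070 and 5878 to 11364 (9 of 9), and fibroblast markers 7764 to 60832 and 10826 to 35997.5 (8 of 8). B-cell markers were 483 to 732 in early and 637 to 3220 in late libraries (8 of 8), highest in late library 3. No marker of these lists was at 0 in all libraries. The part of these cell types, T cells included, in the differences between the stages was not tested.

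The gene with the most similar profile to ETV4, which had the largest log2FC of the 9 genes, was ETV1. Likeness was measured as the root mean square difference of the log2 values over the 10 libraries, each gene centered on its own mean, and was 0.238 for ETV1. PIK3R2 (0.255), a regulatory subunit of phosphoinositide 3-kinase, and SAMD1 (0.263) followed, with log2FC values of -2.20 and -1.77. ETV5 ranked 5th of all genes tested with 0.297, SPRY4 50th with 0.479 and SPRED1 108th with 0.542. DUSP5, SPRY2 and PHLDA1 lay far from ETV4, with differences of 1.38, 1.83 and 1.29. This measure includes the difference between the stages, so that genes with a similar log2FC rank near each other and it is not separate from the log2FC.

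Wider lists of the pathway were set beside these genes, and differences between lists were not tested. Of 24 genes of the RAS-ERK cascade, from the adaptor GRB2 to the ERK targets RPS6KA1 and MKNK1, all were tested. The median log2FC was 0.001, and 1 gene was called lower, against 1.11% of all genes. At an unadjusted p of at most 0.05, 4 were higher and 4 lower, against 30.9% in either direction among all genes. MAP2K1, which encodes the kinase MEK1, ranged from 305 to 409 in early and from 116 to 206 in late libraries (log2FC -1.15 ± 0.17 SE, BY-adjusted p = 0.0219). Its call was lost without early library 1 or 5 or late library 2 or 4, at adjusted p-values from 0.0589 to 0.0827. At the ends of this list stood the scaffold KSR1 with a log2FC of 1.65 and the adaptor GAB1 with -1.36 (BY-adjusted p = 0.160 and 0.319). Of 12 inhibitors of the branch that were tested, none was called by limma at the BY threshold. The BH adjustment gave 2 called lower, against 3.52% of all genes, and 6 had an unadjusted p of at most 0.05, against 30.9% of all genes. RASA2, a GTPase-activating protein of RAS, had the lowest log2FC with -1.06 (BY-adjusted p = 0.0970) and PEBP1 the highest with 0.78 (BY-adjusted p = 0.141).

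Among 16 growth factor receptors tested, 1 was called in each direction, against 1.06% higher and 1.11% lower among all genes. FLT3, a receptor of dendritic cell precursors, ranged from 128 to 447 in early and from 10.9 to 86.2 in late libraries (log2FC -2.89 ± 0.50 SE, BY-adjusted p = 0.0434). FGFR1 ranged from 63.8 to 260 in early and from 320 to 895 in late libraries (log2FC 2.15 ± 0.36 SE, BY-adjusted p = 0.0356). With 1 library omitted at a time, FLT3 was called only in the absence of early library 2, early library 4 or late library 3, and FGFR1 only in that of early library 2, early library 3 or late library 3. In the other 7 fits of each, the adjusted p lay between 0.0828 and 0.135 for FLT3 and between 0.0502 and 0.122 for FGFR1. Of 12 alternatives with all libraries, FLT3 was called in 10 and FGFR1 in 11. By edgeR neither was called (adjusted p = 0.0559 for FLT3 and 0.0551 for FGFR1), nor was FLT3 by limma with robust moderation (adjusted p = 0.0588). With BH adjustment, 1 receptor was called higher and 2 lower, against 5.53% and 3.52% of all genes.

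Of 18 other transcripts that ERK induces, 13 were tested and 9 had a negative log2FC, with a median of -0.65. None was called by limma at the BY threshold. The BH adjustment gave 2 called lower and 1 called higher, against 3.52% and 5.53% of all genes. At an unadjusted p of at most 0.05, 7 of 13 were lower and 2 higher, against 15.3% lower and 30.9% in either direction among all genes. FOSL1, a partner of JUN in the AP-1 factor, ranged from 30.5 to 70.9 in early and from 0 to 29.5 in late libraries (log2FC -2.76 ± 0.77 SE, BY-adjusted p = 0.304). PLK2, a polo-like kinase, ranged from 2.86 to 8.66 in early and from 16.9 to 42.0 in late libraries (log2FC 2.36 ± 0.44 SE, BY-adjusted p = 0.0556), with 30 reads in all early libraries together. Without any 1 late library PLK2 did not pass the filter on low values. With all libraries, PLK2 was called in 6 of 11 alternatives, among them BH adjustment, edgeR and DESeq2 (adjusted p = 0.00556, 0.0495 and 9.47e-05). In the wider list of family members, DUSP2, a phosphatase of activated lymphocytes, ranged from 11.8 to 174 in early and from 238 to 573 in late libraries (log2FC 2.96 ± 0.61 SE, BY-adjusted p = 0.0835). Of the 10 fits with 1 library omitted, it was called in the one without early library 3 (adjusted p = 0.0325), and with all libraries it was called with BH adjustment and by DESeq2 (adjusted p = 0.00835 and 0.00156). ETV1 was the only call by limma at the BY threshold among the 9 genes of that list that were tested, against 1.11% of all genes called lower. With BH adjustment, 2 were called lower and 1 higher, against 3.52% and 5.53% of all genes. The 2 were ETV1 and the phosphatase gene DUSP7. DUSP7 had means of 334 in early and 109.5 in late libraries (log2FC -1.64 ± 0.31 SE, BY-adjusted p = 0.058, BH-adjusted p = 0.0058). The median log2FC of the list was -0.34.

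Of 13 immediate early genes tested, which also respond to ERK but within minutes, 1 was called in each direction. Among all genes, 1.06% were called higher and 1.11% lower. A positive log2FC was found in 11 of 13, against 6171 of all 12397 genes tested, and the median was 0.77. With BH adjustment, 4 were called higher and 1 lower, against 5.53% and 3.52% of all genes. EGR2 rose from 59.6 ± 18.4 to 344 ± 150 (SD, n = 5 each, log2FC 2.46 ± 0.29 SE, BY-adjusted p = 0.00812) and kept its call when any of the 10 libraries was omitted. IER5 fell from 714 ± 82 to 361 ± 80 (log2FC -1.0 ± 0.16 SE, BY-adjusted p = 0.0330) and lies at the size threshold. With 1 library omitted at a time, its call held only in the absence of early library 2, early library 3 or late library 3, and the adjusted p reached 0.110 without early library 5.

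The stress kinases of the MAPK family and the nuclear factors that ERK regulates held no call by limma at the BY threshold. The median log2FC was 0.06 over 12 JNK and p38 kinases and -0.04 over 10 transcription factors. With BH adjustment, 1 gene of the first list was called lower and 1 of the second higher, against 3.52% and 5.53% of all genes. An unadjusted p of at most 0.05 was found in 2 of 12 and 4 of 10, against 30.9% of all genes. MAP2K6, an activator of p38, had the lowest log2FC with -1.97 and MAPK8, which encodes JNK1, the highest with 0.45 (BY-adjusted p = 0.133 and 1). ETS1, a factor abundant in lymphocytes, ranged from 86.6 to 758 in early and from 1257 to 1915 in late libraries (log2FC 2.64 ± 0.51 SE, BY-adjusted p = 0.0661) and was called in 1 of the 10 fits with a library omitted, that without early library 3 (adjusted p = 0.0282). With all libraries, ETS1 was called with BH adjustment, by DESeq2 and with weights per library (adjusted p = 0.0066, 0.00124 and 0.0445). ELK3 had the lowest log2FC of its list with -0.66 (BY-adjusted p = 0.342).

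**Figure D4:**
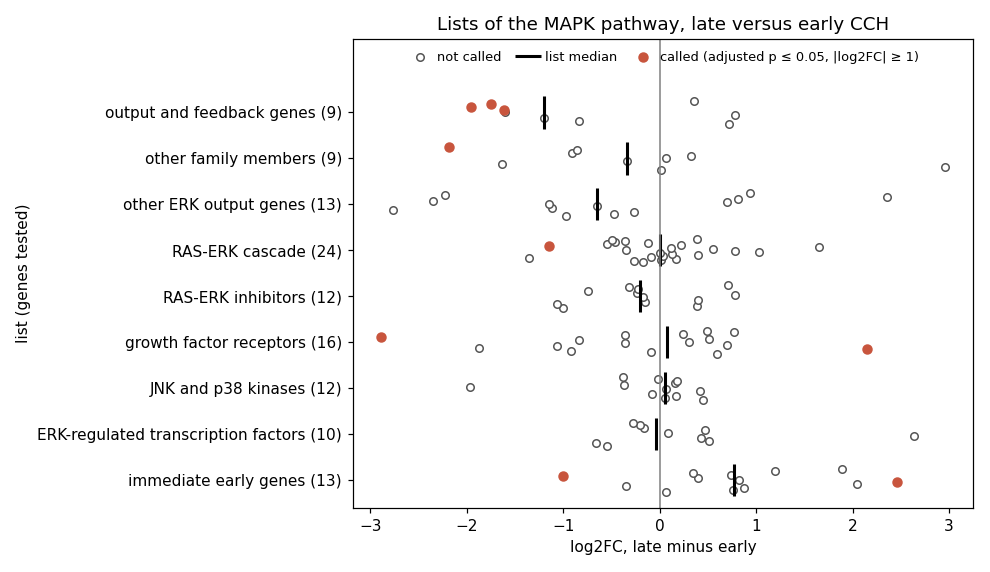
Log2FC between late and early CCH of every tested gene in the 9 pathway lists (number tested in parentheses), with calls filled and list medians as bars. The output and feedback genes have the lowest median at -1.20, the RAS-ERK cascade lies at 0.001, and the immediate early genes have the highest at 0.77.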

How the data were processed

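The authors trimmed reads with Cutadapt, aligned them with STAR to CanFam3.1 (RefSeq annotation) and counted them per gene with featureCounts, a second time on genes extended at their 3′ end. Multi-mapped reads were shared evenly. Tool versions are not given in the sources used here. The deposited values are a normalized signal, the read counts divided by 1 size factor per library, and 100% of the 166096 values above 0 were whole multiples of 1 read (tolerance 0.001). Another 11 columns match no sample and were not used. Column names show the stage of a library but not its sample, so that libraries are only numbered within a stage.

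The filter required a normalized value of 10 or more in 5 or more libraries, which 12397 genes passed. These were fitted with limma-trend (limma 3.58.1, R 4.3.3) on the log2(value + 1) scale, without covariates, on all 10 libraries. The study used DESeq2, which needs raw counts. P-values were BY-adjusted over all genes tested, as in the study, with the call thresholds 0.05 for the adjusted p and 1 for the log2FC. The log2 scale with pseudocount 1 understates changes of low genes. The alternatives included edgeR 4.0.16 and DESeq2 1.42.0 on recovered reads, and the tests were tested on simulated data. A value of 0 allows up to 3 reads, or 2.36 to 3.22 normalized reads, for counting error only.

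The genes and lists were chosen with earlier results of these data known. Named genes were all listed genes found, of each wider list at most 4 calls by size and, with fewer than 2 calls, the highest and lowest log2FC, and the 3 genes most like the gene with the largest change, leaving out symbols that start with LOC. DUSP7 was named outside this rule and was not among the 26 genes refitted. Of 23266 symbols, 19767 were found in the RefSeq table of UU_Cfam_GSD_1.0, which was used for neighbors only.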

Additional observations from a re-analysis of the deposited data

Results flagged for a closer look

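Dixon's ratio relates the gap between an extreme library and the one next to it to the whole range of its stage. It was computed for 26 named genes in each stage, 52 groups of 5 libraries, and exceeded the critical value of 0.71 in 2 of them, where chance gives about 2.6. The high value of SPRY2 in late library 1, 62.6 from 63 reads, was followed by 24.2 in late library 3, which gives a ratio of 0.719. The low value of SPRED1 in late library 4, 122.7, was followed by 251 in late library 3, which gives a ratio of 0.787. Without late library 4, the log2FC of SPRED1 was -1.39 and it was called.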

How the results depend on the processing

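No paired analysis was possible because early and late tumors are from different dogs and no column has a replicate number, so that a fit with a replicate block was not run. A filter at a mean of 50 removed SPRY2, FOSL1, MAP2K6 and PLK2. Over 563 refits of the 26 named genes no sign changed, 499 kept the side of the threshold, 40 lost a call and 24 gained one. Of ETV4, ETV5 and SPRED1, no call was lost under the 12 alternatives that kept all libraries. Relative to the Langerhans and dendritic cell markers, added later, DUSP6 reversed to 0.29 by construction, since the marker mean differed by more.

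Without 1 library, calls over all genes ranged from 18 to 144 higher and 29 to 153 lower, among the 9 output and feedback genes from 1 to 3 lower, and over the wider lists from 1 to 4 higher and 1 to 5 lower (main values 131, 138, 3, 2 and 4). With BH adjustment, all genes gave 685 higher and 436 lower and the wider lists 9 and 12, since BH is less strict. DESeq2 gave 480 and 330, and 8 and 8. The edgeR test gave 81 higher, and 2 lower in the wider lists. Weights per library gave 217 higher, and 4 and 7 in the wider lists. The cause of the last 3 was not tested. With equal column totals, 64% of calls were higher, against 48.7% with the deposited scaling. Few reads stood behind PLK2 (30 early and 158 late in all) and SPRY2 (79 and 126).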
